A study of Homo sapiens with 6 samples.

Results

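The regions described here are stretches of open chromatin inside introns of protein-coding genes, far from any gene start. They were found by merging the open regions called in 6 ATAC-seq libraries on chromosomes 1 to 22 and X, joining calls that overlapped or touched. A merged region was kept when its centre lay in a protein-coding gene of the GENCODE annotation, outside the exons of every gene, and more than 5 kb from the 5′ end of every annotated gene. This gave 14620 distal intronic regions out of 49519 merged regions, or 29.5%. The libraries came from MCF10A cells, an established non-tumorigenic line of human mammary epithelium, described as wild type and kept in medium with EGF, hydrocortisone, cholera toxin and insulin. All cells were first moved to a phosphate-free buffered salt solution for 30 min and then spent another 30 min in one of 3 conditions. These were the buffer alone (control), 50 µM of the zinc chelator tris(2-pyridylmethyl)amine (TPA), or 30 µM ZnCl2, with 2 libraries each. One non-malignant line is a limited model of breast tissue, and the salt solution without growth factors was shared by every condition, the control included.

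ATAC-seq uses a transposase that inserts sequencing adapters where DNA is not wrapped tightly around nucleosomes, so that accessible stretches give many short fragments. Open sites in introns far from a start are often enhancers, DNA elements that raise transcription of a gene from a distance and are occupied by sequence-specific transcription factors. Others are bound by CTCF, a zinc finger protein that holds chromatin loops in place, or are starts of shorter transcripts within the gene. In epithelial cells many enhancers carry the heptamer bound by AP-1, the dimer of FOS and JUN family proteins that acts downstream of growth factor and stress signals.

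The sequence shown by the largest share of distal intronic regions was the AP-1 heptamer, TGANTCA, found within 150 bp of the centre in 4883 of them (33.4%) against 27.0% of all merged regions. Its letters read alike on both strands, which were both searched. Among the 15 genes with most regions, with NRG1 and EXT1 not searched, 10 held a region of the kind described next, and 5 of these are printed. They are one region each from host genes with many such regions, open in all 6 libraries, shown to let the heptamer be seen in its setting. They were chosen after their values were seen, as the region with the heptamer, no repeated centre and the highest score rank in its gene, without an exon within 250 bp of the centre. The centres of the NAV2, ARHGAP26 and TENM2 regions, though far from every gene 5′ end, lay 2.69, 1.65 and 4.54 kb from the 5′ end of an annotated transcript. Each printed sequence is the plus strand of hg38, with the heptamer in capitals.
RUNX1 intron, chr21:35217739-35217839: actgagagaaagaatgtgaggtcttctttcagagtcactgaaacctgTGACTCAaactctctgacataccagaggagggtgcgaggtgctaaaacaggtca
NAV2 intron, chr11:20111505-20111605: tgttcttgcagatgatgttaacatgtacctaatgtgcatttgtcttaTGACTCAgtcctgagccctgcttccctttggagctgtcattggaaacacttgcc
ARHGAP26 intron, chr5:143205486-143205586: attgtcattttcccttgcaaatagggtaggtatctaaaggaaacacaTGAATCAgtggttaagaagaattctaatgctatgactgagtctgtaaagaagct
TENM2 intron, chr5:167759526-167759626: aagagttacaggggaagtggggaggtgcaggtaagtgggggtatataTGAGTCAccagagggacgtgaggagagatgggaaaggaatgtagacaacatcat
CNIH3 intron, chr1:224542982-224543082: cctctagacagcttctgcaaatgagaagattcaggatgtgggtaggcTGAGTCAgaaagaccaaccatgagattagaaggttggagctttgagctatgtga

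Each called region carries a score from the caller HMMRATAC, a hidden Markov model for ATAC-seq. A score percentile is used below, the percent of regions in the same library with a lower score, because scores of different libraries are not on one scale. The CNIH3 region above lay at percentiles 89.3 and 94.2 in the control libraries, 95.8 and 96.7 with TPA, and 92.4 and 84.6 in the ZnCl2 libraries. The TENM2 region lay at 87.0 and 94.9 in control, 96.1 and 95.9 with TPA, and 77.4 and 60.5 with ZnCl2. In both regions the TPA libraries were above the control libraries, and the ZnCl2 libraries were below them in TENM2 and overlapped them in CNIH3. The RUNX1 region lay at 47.9 and 74.7 in control, 86.5 and 81.0 with TPA, and 65.7 and 21.6 in the ZnCl2 libraries. The ARHGAP26 region lay at 87.0 and 92.4 in control, 94.6 and 96.4 with TPA, and 86.9 and 80.3 in the ZnCl2 libraries. The NAV2 region lay at 73.3 and 89.3 in control, 83.6 and 84.9 with TPA, and 81.7 and 76.1 in the ZnCl2 libraries. In NAV2 the TPA libraries overlapped the control, and over all 10 such regions they were above both control libraries in 6, which, as the regions were picked after their values were seen, is a description. The printed regions other than NAV2 were all among these 6. For comparison, 39.8% of all distal intronic regions open in all 6 libraries were higher in both TPA libraries than in both control libraries. Among all merged regions open in all 6 libraries it was 27.4%.

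The lists differed widely in length, also within a condition. They held 25025 and 44637 regions in the control libraries, 35900 and 41374 with TPA, and 38055 and 18883 with ZnCl2, and several comparisons below are therefore also given with each list cut to its 18883 top scores (equal number). The lists give no read counts, so the depth behind a call is unknown and no counting interval can be given. The ZnCl2 replicate 2 list held no call on chromosome 20 from 28562031 to 50021250, a stretch of 21.5 Mb with 532 merged regions, of which 325 were open in 4 or 5 of the other libraries. The running number in the call names advanced by 17 across the stretch in that library and by 3564 to 26601 in the others, and the next longest such stretch in any library held 12 such regions. It holds 167 of the distal intronic regions, of which 63 were open in all 5 other libraries. The sources describe the 2 libraries of a condition in one place as biological and in another as technical replicates, so p-values measure the spread between these libraries, which may be technical.

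Distal intronic regions were more frequent in the sequence they could occupy than intergenic ones. The 1005.7 Mb of intron open to the rule held 14.5 of them per Mb, against 10.5 per Mb for regions more than 5 kb from a start and outside all genes (distal intergenic, 10302 regions). They were a median of 24.0 kb from the nearest gene 5′ end and 17.5 kb from the nearest other distal intronic region, and 37.0% had another within 10 kb. First introns held 29.0% of those that lay in an intron of the canonical transcript, while making up 21.7% of the eligible intron sequence, so that density was 19.2 per Mb in first and 13.03 per Mb in later introns. Their median width over the merged calls was 1640 bp, against 1480 bp for distal intergenic regions and 2480 bp for the 18683 regions within 5 kb of a gene start (start-proximal). The GC content of the central 300 bp was 46.6% ± 8.9 (SD over regions), close to the 46.5% of distal intergenic regions and below the 57.2% of start-proximal ones.

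The rule used gene 5′ ends, and 4126 of the regions (28.2%) lay within 5 kb of the 5′ end of some other annotated transcript. These were open in all 6 libraries in 29.9% of cases, against 20.05% of the 10494 that were far from every transcript start. Their GC content was 50.0% against 45.2%, and 27.0% of them held the AP-1 heptamer against 35.9%. Regions at the edge of the rule were alike on both sides: the 629 lying 5 to 6 kb from a gene 5′ end were open in all 6 libraries in 24.0% of cases and held the AP-1 heptamer in 29.3%, and the 657 intronic regions at 4 to 5 kb in 24.8% and 31.2%.

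The number of distal intronic regions open followed the length of the list. It was 5782 and 12388 in control, 9472 and 11418 with TPA, and 9560 and 3915 in the ZnCl2 libraries, so the control libraries alone spanned nearly the whole range. All 6 libraries called 3339 of them (22.8%), and 2868 (19.6%) were called in a single library. Among start-proximal regions 49.2% were open in all 6, and among distal intergenic ones 19.6%. Leaving out the stretch of chromosome 20, the share open in all 6 was 23.1%. Within every library a larger share of distal intronic than of distal intergenic regions was open, by 2.22 percentage points on average (SD 0.907, n = 6), from 0.779 to 3.31 points (two-sided exact sign-flip permutation test over libraries, p = 0.03125, the smallest that 6 libraries allow, adjusted p = 0.0426 over 30 within-library comparisons). For the regions far from every transcript start the excess was 0.596 points and did not pass this exact permutation test (p = 0.344).

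**Figure D1:**
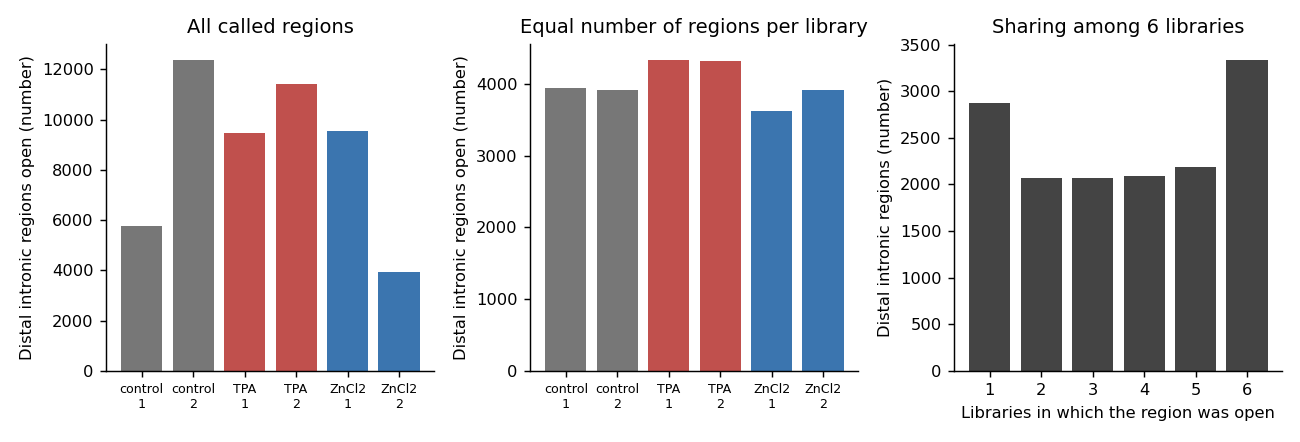
Number of distal intronic regions open in each library with all called regions (left) and with each list cut to its 18883 top scores (middle), and number of regions by how many of the 6 libraries they were open in (right). Bars are single libraries or counts of regions, with grey for control, red for TPA and blue for ZnCl2. At an equal number both TPA bars, at 4338 and 4319, exceed the control bars at 3943 and 3920, and the ZnCl2 bars at 3616 and 3915 lie below them.

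With an equal number of regions per library, distal intronic regions open numbered 3943 and 3920 in control, 4338 and 4319 with TPA, and 3616 and 3915 with ZnCl2. Both TPA libraries lay above both control libraries, and both ZnCl2 libraries below them, ZnCl2 replicate 2 by 5 regions and with a stretch of chromosome 20 uncalled. The share of all open regions that was distal intronic was 21.99% and 21.3% in control, 24.0% and 23.7% with TPA, and 20.0% and 21.5% with ZnCl2. It was 2.19 points higher with TPA (exact permutation test, two-sided, p = 0.3333, below which 2 against 2 libraries cannot go) while the ZnCl2 difference was -0.904 points (exact permutation p = 0.667). With all called regions the share was 24.5% and 28.8% in control, 28.01% and 29.2% with TPA, and 26.7% and 21.5% with ZnCl2, and both treatments overlapped the control. The design cannot reach a p of 0.05 for any difference between conditions, and the smallest of 26 such exact permutation p-values was 0.3333, adjusted to 0.788. In these bulk libraries more cells with a region open and a more open region per cell cannot be told apart.

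Distal intronic regions ranked low within every list. Their median score percentile was 37.1 and 41.2 in control, 43.4 and 41.99 with TPA, and 38.4 and 35.2 with ZnCl2. Start-proximal regions had medians of 60.5 to 67.4, and the difference was 24.2 points on average in all 6 libraries (SD 3.46, exact sign-flip permutation p = 0.03125, adjusted 0.0426). Against distal intergenic regions the difference was 1.17 points, with 3 libraries higher and 3 equal (exact permutation p = 0.25), and its sign turned to -0.909 at an equal number of regions and to -1.09 for regions far from every transcript start. The TPA medians lay above both control medians by 3.53 points on average (exact permutation p = 0.3333), a difference that fell to 1.51 when control replicate 1 was left out and rose to 5.56 when control replicate 2 was. The ZnCl2 medians overlapped the control. With lists cut to equal length the TPA difference was 4.08 points and the ZnCl2 difference -0.410, and distal intronic minus start-proximal regions came to -21.1 points.

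The same ranking was repeated among the 15851 regions open in all 6 libraries, so that every library was ranked over the same regions. This set is limited by the shortest lists, and effects of depth on the scores may remain. There the distal intronic median was 36.8 and 35.4 in control, 45.4 and 43.7 with TPA, and 33.6 and 36.4 in the ZnCl2 libraries. The TPA libraries were 8.40 points higher than control (exact permutation p = 0.3333), and the ZnCl2 libraries overlapped the control. Distal intergenic regions differed in the same way and by at least as much, with medians of 48.7 and 47.04 with TPA against 39.4 and 36.8 in control, so this was not particular to introns. Start-proximal regions differed in the other direction, with medians of 52.0 and 51.9 against 57.6 and 59.6 in control. Since ranks are relative, a rise of one class within a list goes with a fall of another.

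**Figure D2:**
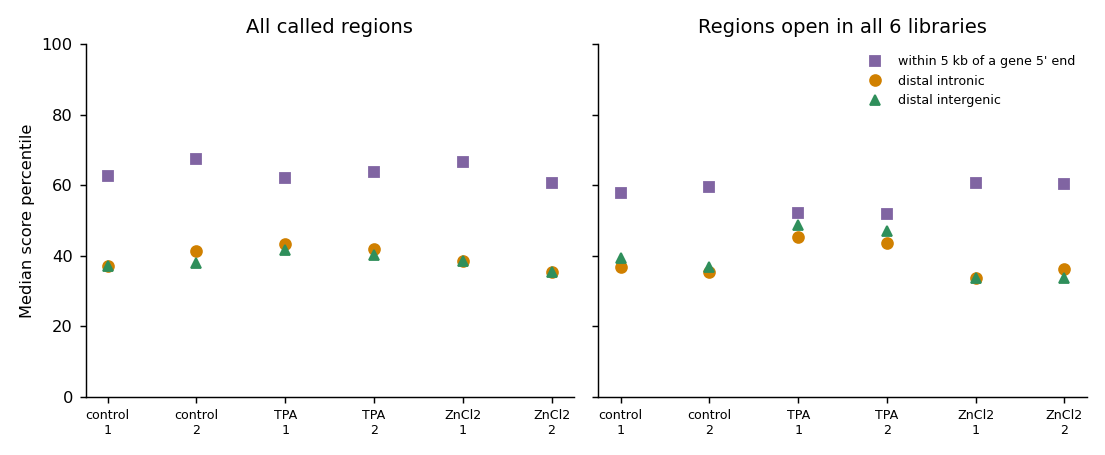
Median score percentile of distal intronic (circles), distal intergenic (triangles) and start-proximal regions (squares) in each library, among all called regions (left) and among the regions open in all 6 libraries (right). In the right panel the distal intronic medians of 45.4 and 43.7 with TPA stand above the 36.8 and 35.4 of the control libraries.

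Among the 3339 distal intronic regions open in all 6 libraries, 1328 (39.8%) had a higher percentile in both TPA libraries than in both control libraries, against 27.4% of all such regions. Lower values in both TPA libraries were found for 470 (14.1%), against 25.2%. Among distal intergenic regions the shares were further apart, at 43.0% higher and 9.86% lower. With ZnCl2, 708 (21.2%) were higher, against 23.2%, and 800 (24.0%) were lower, against 21.2%. Both comparisons use the same 2 control libraries. The regions that were higher with TPA had a GC content of 47.8% and held the AP-1 heptamer in 32.8% of cases, and those that were lower had a GC content of 54.7% and held it in 16.4%. With ZnCl2 the higher regions had a GC content of 52.95% and the lower ones 46.7%, with the heptamer in 24.4% and 31.1%.

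The AP-1 heptamer was concentrated at the centres of distal intronic regions. It was found in 33.4% of central 300 bp windows and in 8.34% of windows of the same length 5 kb to the side, a ratio of 4.01, the largest among the 11 motifs searched. The next ratios were 3.29 for the SP/KLF motif of GC-rich promoters (GGGGCGGGG), 2.41 for the p53 family, 1.92 for GRHL (AACCGGTT), 1.79 for ETS (CCGGAAGT) and 1.55 for CRE (TGACGTCA), of which the last 4 were each found in under 1% of regions. They were 1.40 for RUNX (TGTGGTT), 1.36 for TEAD, the DNA partner of YAP (CATTCCA), 1.33 for the CTCF core (CCCTNNTGG), 1.18 for C/EBP (TTGCNNAA) and 1.13 for the glucocorticoid receptor (ACANNNTGT). The share with the heptamer rose with distance from the nearest gene 5′ end, from 30.4% at 5 to 10 kb to 40.2% beyond 100 kb, while GC content fell from 48.5% to 42.8%. It was 36.5% in regions open in 1 library and 28.8% in those open in all 6. By score rank among the latter it was 34.3% in the lowest 668 and 22.3% in the highest 667.

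**Figure D3:**
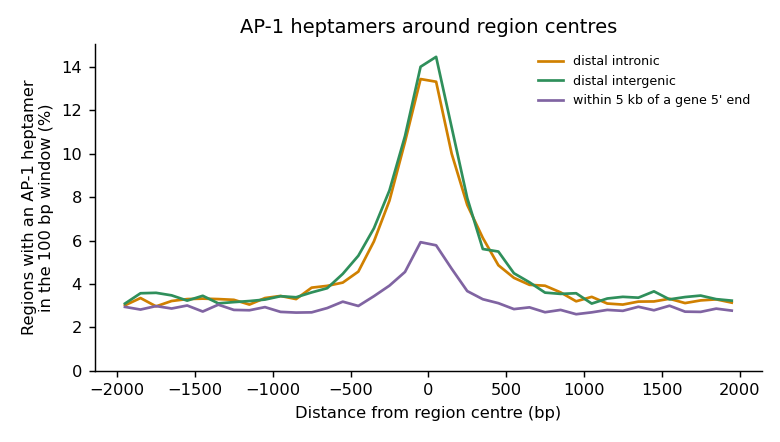
Percent of regions with an AP-1 heptamer in each 100 bp window from 2000 bp before to 2000 bp after the region centre, for distal intronic, distal intergenic and start-proximal regions. In the window just before the centre the share is 13.4% for distal intronic, 14.01% for distal intergenic and 5.93% for start-proximal regions.

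Within each library the heptamer was found in a larger share of open distal intronic than of start-proximal regions, 31.6% against 12.3% on average (difference 19.3 points, SD 1.12, higher in 6 of 6 libraries, exact sign-flip permutation p = 0.03125, adjusted 0.0426). It was less frequent than in distal intergenic regions, by 2.79 points on average in 6 of 6 libraries (exact permutation p = 0.03125, adjusted 0.0426), a difference of -3.74 points with lists of equal length. This second difference came to 0.212 points in the opposite direction when both classes were restricted to regions far from every transcript start (exact permutation p = 0.562). The motifs of a region are fixed and the libraries share many regions, so the 6 values are not independent. These p-values show only the spread between libraries. TEAD, RUNX, glucocorticoid receptor and C/EBP motifs were also more frequent than in start-proximal regions in every library, and SP/KLF, ETS and CRE motifs less frequent. The p53 family motif, searched by name as a pair of adjacent half-sites with at most 2 flanking bases off the consensus, was found in 54 distal intronic regions (0.369%), against 0.390% of all regions and 0.153% of windows 5 kb to the side.

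The motif content of the open distal intronic regions differed between conditions in opposite directions. The AP-1 share was 31.1% and 32.2% in control, 33.5% and 35.3% with TPA, and 29.8% and 28.05% in the ZnCl2 libraries. The CTCF core share was 6.23% and 5.76% in control, 5.65% and 5.32% with TPA, and 7.15% and 7.38% with ZnCl2. Neither treatment overlapped the control for either motif, and the order was AP-1 higher and CTCF lower with TPA, and the reverse with ZnCl2 (exact permutation p = 0.3333 for each of these 4 differences, the smallest possible, adjusted 0.564 over 44 comparisons). With lists cut to equal length the AP-1 share was 29.2% and 28.2% in control, 31.2% and 31.6% with TPA, and 26.4% and 28.05% in the ZnCl2 libraries. The CTCF share was then 6.34% and 6.07% in control, 5.79% and 5.21% with TPA, and 6.97% and 7.38% with ZnCl2, again without overlap. Among regions far from every transcript start at equal list length, the TPA libraries overlapped the control for CTCF, at 5.71% and 5.02% against 6.08% and 5.65%. Distal intergenic regions at an equal number had the same order for both motifs.

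Base composition moved with these shares. In lists of equal length the mean GC content of open distal intronic regions was 48.6% in both control libraries, 47.8% and 47.4% with TPA, and 50.7% and 49.8% with ZnCl2. Among regions with a GC content of 45 to 55%, a limit chosen after the data were seen, the AP-1 share was 32.03% and 31.2% in control, 34.0% and 33.9% with TPA, and 32.3% and 33.2% in the ZnCl2 libraries. The TPA libraries thus remained above the control, while the ZnCl2 libraries were above it instead of below. The CTCF share in this band was 7.38% and 7.14% in control, 6.92% and 6.15% with TPA, and 6.51% and 7.73% in the ZnCl2 libraries, so that the ZnCl2 libraries overlapped the control. The part of base composition in the unrestricted shares was not tested further.

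**Figure D4:**
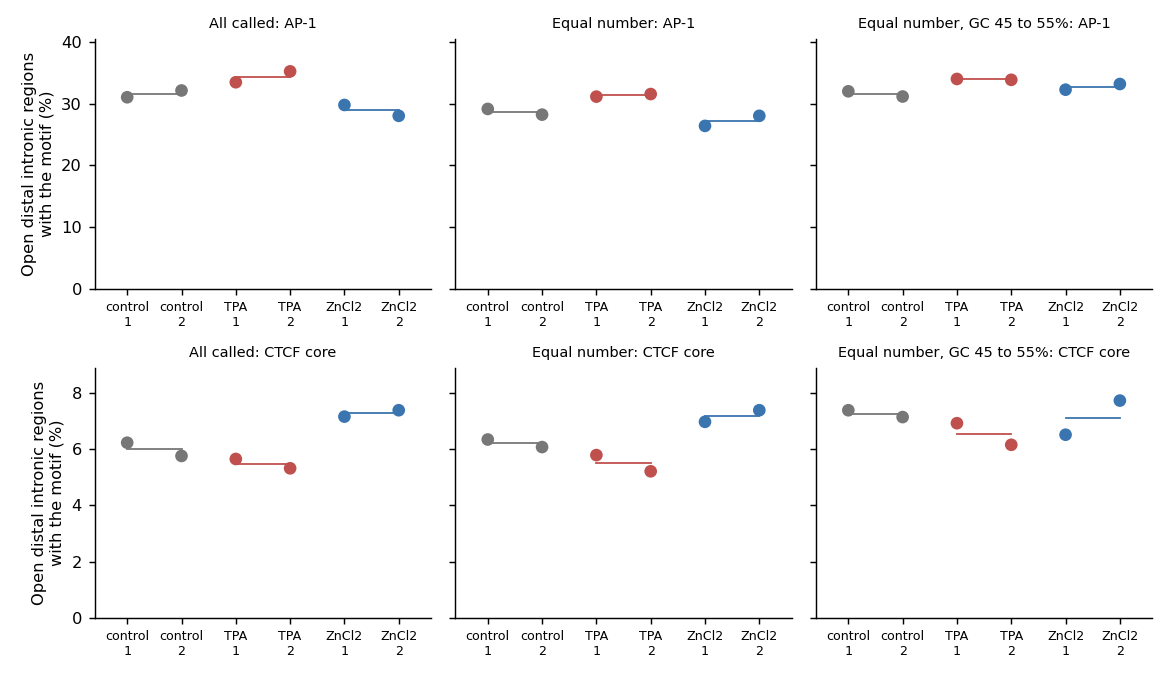
Percent of open distal intronic regions with the AP-1 heptamer (top) and the CTCF core (bottom) in each library, with all called regions, with an equal number of regions, and with an equal number and a GC content of 45 to 55%. Points are single libraries and lines are means of 2. With all called regions the AP-1 points run from 28.05% with ZnCl2 to 35.3% with TPA, and in the GC band the ZnCl2 points no longer lie below the control.

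Distal intronic regions were counted as gained when called in both treated libraries but not in the control, and as lost when called in both control libraries but in neither treated one. With TPA 381 were gained (2.61%), against 2.04% of all merged regions, and 70 were lost (0.479%), against 0.701%. With ZnCl2 16 were gained (0.109%), against 0.172%, and 334 were lost (2.28%), against 1.73%. In lists of equal length, where 6349 distal intronic regions were open in some library, 368 were gained with TPA (5.80%, against 3.79%) and 180 lost (2.84%, against 4.58%). With ZnCl2 238 were then gained (3.75%, against 3.21%) and 344 lost (5.42%, against 3.65%). The direction with TPA was toward gain in both settings and with ZnCl2 toward loss, but the regions differed, and leaving out 1 library could turn the direction. Of the distal intronic regions gained with TPA 5 met the criterion in both settings, as did 9 lost with TPA, 7 gained with ZnCl2 and 32 lost with ZnCl2. Only 2 of the 334 lost with ZnCl2 lay in the uncalled stretch of chromosome 20, and without it the percentage lost was 2.30%. Without control replicate 1, TPA gave 398 gained and 1959 lost regions, more losses than gains, and with ZnCl2 20 were gained and 3730 lost. Without control replicate 2, 3480 were gained and 71 lost with TPA, and with ZnCl2 409 were gained and 344 lost, so that gains exceeded losses. Without ZnCl2 replicate 2, 931 were gained and 353 lost with ZnCl2, again more gains than losses, and without ZnCl2 replicate 1, 28 were gained and 2292 lost. Without TPA replicate 1 there were 1267 gained and 120 lost with TPA, and without TPA replicate 2 there were 575 gained and 228 lost.

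The gained and lost regions differed in sequence. The AP-1 heptamer was present in 178 of the 381 gained with TPA (46.7%) and in 8 of the 70 lost (11.4%). It was present in 132 of the 334 lost with ZnCl2 (39.5%) and in 1 of the 16 gained. For gain and loss with TPA the shares were 46.3% and 7.50% in distal intergenic regions, and 42.2% and 4.23% in start-proximal ones. For loss with ZnCl2 they were 38.5% and 31.8% in these 2 classes, so the AP-1 difference was not particular to introns. The CTCF core was present in 4.99% of the distal intronic regions gained with TPA and in 11 of the 70 lost (15.7%), against 5.92% of all distal intronic regions. Distal intergenic regions did not share this order, with 6.61% of those gained and 2 of the 40 lost (5.00%). In start-proximal regions the shares were 6.22% and 7.41%. With ZnCl2 the core was present in 0 of the 16 distal intronic regions gained and in 3.59% of those lost. In lists of equal length the AP-1 shares were 37.8% and 22.2% for gain and loss with TPA, and 25.6% and 34.6% for gain and loss in the ZnCl2 libraries. The CTCF shares were 4.62% and 12.2% with TPA, and 9.24% and 2.91% with ZnCl2. In distal intergenic regions they were 4.22% and 6.90% with TPA, and 14.7% and 5.37% with ZnCl2. With all called regions the GC content of distal intronic regions moved along with the AP-1 shares. It was 44.7% for the regions gained and 52.9% for those lost with TPA, and 40.5% for those lost in the ZnCl2 libraries. The number of calls in each list sets which regions can be gained or lost, so these are descriptions and carry no test.

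Loss with TPA and gain with ZnCl2 exclude each other by definition, since loss needs a call in both control libraries and gain needs none there. At an equal number 22 distal intronic regions with a CTCF core were lost with TPA. Below are 2 of them, chosen after their values were seen from the 3 highest ranked in control among those with a single-copy centre and no exon within 250 bp, leaving out one that lies in a pair of overlapping genes, with the core in capitals on the plus strand of hg38, where CCAGCAGGG is the reverse complement of CCCTGCTGG.
LRMDA intron, chr10:76103442-76103542: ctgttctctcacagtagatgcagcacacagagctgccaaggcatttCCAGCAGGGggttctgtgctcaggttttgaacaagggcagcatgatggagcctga
ARHGAP27 intron, chr17:45425144-45425244: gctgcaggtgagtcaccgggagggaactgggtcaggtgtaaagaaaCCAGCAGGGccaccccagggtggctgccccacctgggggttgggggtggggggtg
The LRMDA region, 139 kb from the nearest gene 5′ end, lay at percentiles 73.3 and 72.7 in control, 30.8 and 43.7 with TPA, and 65.7 and 25.3 in the ZnCl2 libraries. The ARHGAP27 region, 0.365 kb from a transcript 5′ end, lay at 69.2 and 63.9 in control, 18.6 and 23.3 with TPA, and 82.9 and 51.1 with ZnCl2. Both were thus still called in the TPA libraries, at a lower rank, and counted as lost only once the lists were cut to equal length.

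The regions that met the gain or loss criterion in both settings and scored highest were a mixed set. With TPA these included an intron of CCDC141 (chr2:178870411-178871090), at percentiles 59.4 and 69.1 in the TPA libraries, and an intron of DPT, the gene of the matrix protein dermatopontin (chr1:168713861-168714450), at 60.7 and 59.9. Another, in XKR6, was also called in ZnCl2 replicate 2 and had a centre sequence found 3 times in the genome. Regions lost with TPA included introns of CHID1 (chr11:874421-878520), at 70.7 and 66.5 in control and 90.8 and 92.4 with ZnCl2, and of SNX30, a sorting nexin gene (chr9:112865831-112868410), at 56.8 and 76.0 in control and 74.4 and 77.9 with ZnCl2. Regions lost with ZnCl2 included introns of CLDN10, a tight junction claudin gene (chr13:95563861-95565710), at 73.3 and 74.7 in control and 73.3 and 61.1 with TPA, and of PLD5 (chr1:242224941-242226840), at 66.1 and 75.3 in control and 84.7 and 85.9 with TPA. The PLD5 centre held a sequence found 4 times, and the CLDN10 centre lay 4.64 kb from a transcript 5′ end. In CHID1, SNX30, CLDN10 and PLD5 the other treatment kept the call in both of its libraries. The remaining named regions, in SRGAP2B (lost with TPA) and SLCO5A1 (lost with ZnCl2), had centre sequences found 3 and 4 times.

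Of the 16 distal intronic regions gained with ZnCl2, 50.0% had a centre sequence of 32 bases found more than once in the genome, against 10.3% of all distal intronic regions. Among regions gained with ZnCl2 in other classes this was more frequent, at 73.7% of 19 distal intergenic and 67.5% of 40 start-proximal ones. Of the 16 distal intronic regions, 7 met the criterion in both settings. The highest scoring 2, in FMN2 and RPH3AL, are shown because they contain tandem repeats. They held no motif among those searched and are therefore written without capitals. FMN2 encodes an actin nucleating formin and RPH3AL an effector of Rab GTPases in secretion.
FMN2 intron, chr1:240184801-240185000: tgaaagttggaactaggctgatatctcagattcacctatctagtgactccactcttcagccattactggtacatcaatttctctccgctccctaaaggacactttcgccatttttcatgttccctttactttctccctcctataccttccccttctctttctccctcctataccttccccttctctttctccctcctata
RPH3AL intron, chr17:215836-216035: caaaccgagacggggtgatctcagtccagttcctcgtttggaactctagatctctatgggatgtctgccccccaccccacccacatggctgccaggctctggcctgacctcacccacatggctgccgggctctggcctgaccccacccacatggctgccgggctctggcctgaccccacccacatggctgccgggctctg
The FMN2 region lay at percentiles 96.5 and 93.7 in the ZnCl2 libraries and the RPH3AL region at 96.6 and 90.7, and neither was called in the other 4 libraries. The next by score, in SLC17A9, the gene of the vesicular nucleotide transporter (chr20:62960401-62962660), had a single-copy centre and lay at 89.0 and 70.6. The centres in FMN2, RPH3AL and SLC17A9 lay 3.31, 0.003 and 0.751 kb from a transcript 5′ end. Leaving out regions with repeated centres reduced the 16 to 8.

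The regions with the highest scores in all 6 libraries were also unusual for the class. Their centres lay in introns of NCF1, a subunit of the phagocyte NADPH oxidase (chr7:74769301-74798980), ATP9B (chr18:79245021-79247330), GRK6, a G protein-coupled receptor kinase (chr5:177424981-177440050), NOTCH2, a Notch receptor (chr1:120068431-120070100), NUDCD1, and PGAP2, a factor of GPI anchor processing (chr11:3787911-3822080). The first lay at percentiles 99.7 to 99.9 and PGAP2 at 99.1 to 99.5. The centre of the NCF1 region held a sequence found 154 times in the genome, and those of ATP9B and NOTCH2 sequences found 5 times each. The merged regions of NCF1, GRK6 and PGAP2 were 29680, 15070 and 34170 bp wide, and the GRK6, NOTCH2 and NCF1 centres lay within 1 kb of a transcript 5′ end. In NCF1 the calls covered 29660 bp in TPA replicate 1 and 360 to 1770 bp in the other libraries. In PGAP2 they covered 34170 bp in TPA replicate 2 and 2970 to 6270 bp in the others. The centres of these regions, and with them class and motifs, thus rested on the long call of 1 library. The PGAP2 centre lay in no intron of its canonical transcript.

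Distal intronic regions were found in 5897 of the 15498 protein-coding genes that had intron sequence open to the rule (38.1%). Of these, 2839 held 1 region, 175 held 10 or more, and 13 held 20 or more, and the 175 genes together held 15.5% of all distal intronic regions. Longer introns held more, with a Spearman correlation of 0.583 across genes between the count and the eligible length, given as a description. The 5′ end of the gene was open in all 6 libraries in 46.3% of genes with a distal intronic region and in 46.4% of the 9601 eligible genes without one, and open in none in 32.2% and 36.3%.

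RUNX1, which encodes a DNA-binding Runt factor of blood and mammary epithelium, held the most, with 29 regions, 4 of them open in all 6 libraries. Its regions open numbered 12 and 25 in control, 26 and 24 with TPA, and 13 and 4 with ZnCl2, and 12 of the 29 held the AP-1 heptamer. NAV2, a neuron navigator gene, held 28, with 14 and 25 in control, 21 and 21 with TPA, and 18 and 11 with ZnCl2. NRG1, the gene of the ERBB receptor ligand neuregulin, held 26, of which 9 and 22 were open in control, 15 and 19 with TPA, and 11 and 6 in the ZnCl2 libraries. The most upstream 5′ ends of these 3 genes were called in none of the libraries, and in each gene both treatments overlapped the control.

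EXT1, a heparan sulfate polymerase gene, held 24, as did PARD3, a gene of the polarity complex at tight junctions, and MACROD2. ARHGAP26 held 22, and FOXP1, SPOCK1, KAZN and PDE4D held 21 each, KAZN being a desmosome-associated gene and PDE4D a cAMP phosphodiesterase gene. RAD51B and TENM2 held 19 each and CNIH3, an AMPA receptor auxiliary subunit gene, held 18, of which 12 were open in all 6 libraries, the most among the 15 genes. The AP-1 heptamer was in 13 of the 21 regions of KAZN (61.9%) and in 14 of the 24 of MACROD2 (58.3%), and in 5 of the 24 of EXT1 (20.8%). SRGAP2 held 23, but 19 of them had a centre sequence found more than once, and these 19 are uncertain, since the gene has near-identical copies in the genome.

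**Figure D5:**
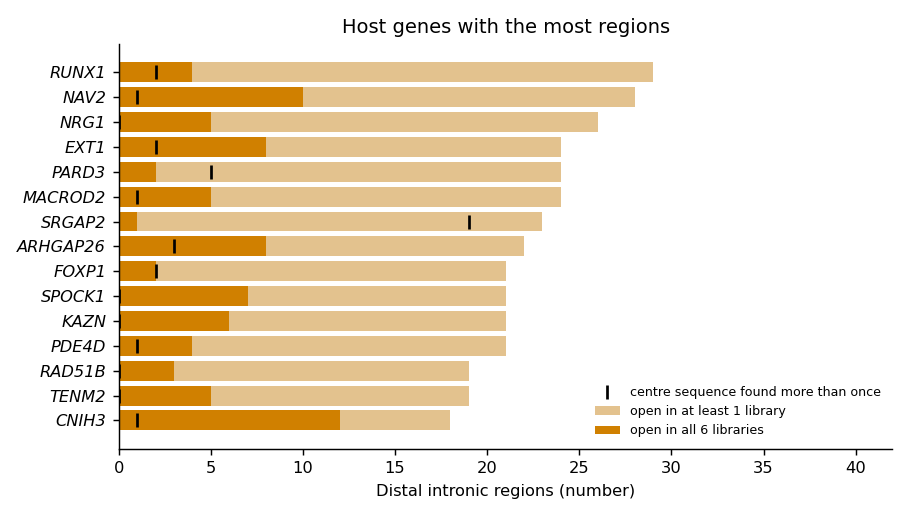
Number of distal intronic regions in the 15 host genes with the most, with those open in all 6 libraries in the darker shade and the number with a repeated centre sequence as a black mark. RUNX1 leads with 29 regions, CNIH3 has 12 of 18 open in all 6 libraries, and 19 of the 23 in SRGAP2 have a repeated centre.

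By density, among genes with at least 8 regions, EGLN1, the gene of the oxygen-sensing prolyl hydroxylase PHD2, led with 16.1 per 100 kb of eligible intron, against 1.45 over all genes. It was followed by GNG12, a G protein gamma subunit gene, with 13.4, SHB, an adaptor of receptor tyrosine kinases, with 10.5, and ADRA1B, an adrenergic receptor gene, with 10.2. SRGAP2, SH3BP4, LGR6, FGF1, UBASH3B and NRP2 had 9.83 to 8.88. LGR6 encodes an R-spondin receptor of epithelial stem cells, FGF1 a fibroblast growth factor and NRP2 a receptor for semaphorins and VEGF. These genes were shorter than the leaders by count, EGLN1 spanning 58.5 kb and RUNX1 1217 kb.

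Several gene lists chosen for this cell type were denser than the average of 1.45 per 100 kb. Density did not set all of them apart from lists for other cell types. There endothelial genes had 3.03, fibroblast genes 1.69, blood genes 1.51 and neuronal genes 0.332. A region in overlapping genes was counted for each, which holds for 716 regions. Genes of the TGF-beta and YAP pathways had 4.09, with 13 of 15 genes holding at least 1 region, among them TEAD1 with 12, SMAD3 with 8, TGFB2 with 7 and WWTR1 with 4. Genes of the actin cytoskeleton and cell junctions had 3.39, with 19 of 22 genes holding a region, led by PARD3 with 24, LPP with 14, TNS3 with 13 and MYO1E with 11. Genes of basement membrane adhesion had 3.06, with 10 of 16 genes holding a region, among them DST with 12, LAMA3 with 6 and PLEC with 4. Epithelial transcription factor genes had 3.06 as well, with 12 of 18 genes holding a region. They were led by RUNX1 with 29, NFIA with 15, TEAD1 with 12 and NFIB with 10. The gene 5′ end was open in none of the libraries in 10 of these 18 genes. Glucocorticoid response genes had 3.72, with 5 of 8 genes holding a region, among them ZBTB16 with 8 and the receptor gene NR3C1 with 5.

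EGF receptor and MAP kinase genes had 1.40 per 100 kb, close to the average. EGFR, the receptor for the EGF that these cells are grown in, held 8 of their 23 regions, with 4 and 8 open in control, 7 and 7 with TPA, and 4 and 3 with ZnCl2. Zinc homeostasis genes had 1.55, with regions in 7 of 19 eligible genes. They were led by the zinc importer gene SLC39A11 with 8, of which 2 and 4 were open in control, 5 and 5 with TPA, and 5 and 2 with ZnCl2, and by SLC30A10 with 4, of which 1 and 3, 1 and 2, and 3 and 1 were open. The lists share genes, and none of their counts carries a test.

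The labelled cell type was checked against markers. Genes of basal mammary epithelium had 2.80 regions per 100 kb, including EGFR with 8, LAMA3 with 6 and TP63 with 4. Regions lay in 5 of the 10 genes, and KRT5, KRT14, KRT17, ITGB4 and SFN held none. The gene 5′ end was open in at least 1 library in 9 of 10 genes, the exception being TP63, and in all 6 libraries in 3. Luminal genes had 1.40, with regions in 6 of 12 genes. Their 5′ ends were open in none of the libraries in 7 and in all 6 libraries in 4. Blood genes had 1.51, neuronal genes 0.332, fibroblast genes 1.69 and endothelial genes 3.03, with 5′ ends open in none of the libraries in 9 of 12, 9 of 14, 6 of 9 and 5 of 6 genes. Endothelial genes such as ERG with 8 and TEK with 7 thus held distal intronic regions without an open gene start, and whether other cells took part in this was not tested.

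Along the genome the density of distal intronic regions ranged from 7.31 per Mb of eligible intron on chromosome X to 19.9 on chromosome 1. When each chromosome was split at its longest stretch without an annotated gene, density over the 43 parts with more than 5 Mb of eligible intron had a median of 14.5 per Mb. It was highest, at 23.5, on chromosome 1 after position 143343179, which holds SRGAP2, CNIH3, EGLN1 and LGR6. The part of chromosome 5 after position 50396191 had 17.98, behind parts of chromosomes 20, 22, 19 and 16 with 21.4 to 18.2. It holds ARHGAP26, SPOCK1, PDE4D, TENM2, ADRA1B and FGF1. In these parts of chromosomes 1 and 5, 31.3% and 30.7% of the regions were open in all 6 libraries. On chromosome 19 after position 27638482 it was 37.2%.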

How the data were processed

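ATAC-seq of MCF10A cells gave 6 lists of open regions. Per the sources, the authors trimmed reads with BBDuk, aligned them to hg38 with HISAT2 2.1.0 and called open regions with HMMRATAC, and FastQC 0.11.8 and SAMtools 1.8 appear in the submitters' processing notes. The HMMRATAC version is not given in the sources used here. The deposited lists give position and a score per region, an uncalibrated number of at least 30, and no read counts. Between 74 and 217 regions per library on other sequences were left out, and no blacklist was used here.

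Lists were merged and classified with GENCODE release 44 in Python 3.11.15 (NumPy 2.4.6, SciPy 1.17.1, pysam 0.24.0). Where calls of a library were merged, the highest score percentile was kept. Motifs were searched on both strands in 300 bp at the centre, which gives a description and not a binding site. Repeated centres were those in which any of 3 sequences of 32 bases occurred more than once in the genome. Functions were tested on simulated data. Libraries were grouped by their labels. Conditions were compared by two-sided exact permutation tests, and classes by exact sign-flip tests over libraries. Named genes were the 15 hosts by count, the 10 by density among those with 8 or more regions, the 3 highest scoring regions gained or lost in both settings, the 6 highest scoring regions open in all libraries, and up to 4 leading genes per list, of which 1 is not reported here. Regions and lists were chosen with earlier results of these data known. Alternatives covered list length, score, start definition, overlap, left-out libraries, percentile form, motif window and replicate block.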

Additional observations from a re-analysis of the deposited data

Results flagged for a closer look

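Several measures of open distal intronic regions had both TPA libraries on one side of both control libraries and both ZnCl2 libraries on the other. The difference between the treatments was not tested, and both share the control libraries. With all called regions, the TPA mean exceeded the ZnCl2 mean by 5.45 points for the share with an AP-1 heptamer, 2.91 points for C/EBP and 0.894 points for the glucocorticoid receptor motif, and was below it for the CTCF core, by a difference of -1.79 points. At an equal number of regions the differences were 4.15 for AP-1, 3.01 for C/EBP, 0.613 for the glucocorticoid receptor motif and -1.68 for the CTCF core. At an equal number the TPA libraries also had a GC content that differed by -2.67 points from the ZnCl2 libraries, and 563 more distal intronic regions open on average. Distal intergenic regions at an equal number had the same order for all of these measures. Within the GC band of 45 to 55%, the ZnCl2 libraries were above the control for AP-1 and overlapped it for the CTCF core. In the same band the glucocorticoid receptor order reversed, with means of 8.72% with TPA, 8.91% in control and 9.43% with ZnCl2, and the C/EBP mean with TPA, 15.98%, was below the control mean of 16.4%, with 15.2% for ZnCl2.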

How the results depend on the processing

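Of 110 alternative values over the 9 results other than treatment differences in share and percentile, 58 kept their direction and side of the threshold or stayed within 1.5 times of a count. For the 4 treatment differences no p can pass, so that only direction can change, which it did in 1 of 48 values, while sizes moved widely. The excess of distal intronic over distal intergenic regions in score percentile, 1.17 points, turned to -0.909 at an equal number of regions, -0.990 in the upper 50% by score, -1.09 far from every transcript start and -1.33 among regions open in all 6 libraries. The AP-1 difference between these classes turned to 0.212 far from transcript starts, where the difference in percent open fell to 0.596. Leaving out a library lowers the number of sign flips, so no p could pass, while values ran from -2.99 to -2.71 points for AP-1 against distal intergenic and from 19.1 to 19.6 against start-proximal regions, from -25.4 to -23.5 for the percentile against start-proximal regions, and from 2.00 to 2.51 for percent open. The TPA share difference ran from -0.189 (without control replicate 1) to 4.09. Without 1 library the ZnCl2 share difference ran from -5.14 to -0.0015, the TPA percentile difference from 1.51 to 5.56 and the ZnCl2 one from -4.35 to -0.299.

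Without 1 library, counts ran from 398 to 3480 gained and 71 to 1959 lost with TPA, and from 20 to 931 gained and 344 to 3730 lost with ZnCl2. At an equal number 180 were lost with TPA and 238 gained with ZnCl2, far from transcript starts 42 and 9, with calls covering at least 50% of a region 189 and 50, and with single-copy centres 8 were gained with ZnCl2. The last setting, the stretch of chromosome 20 and the GC band were chosen after seeing the data. Control and treated libraries share only replicate numbers, with correlations of deviations between same-numbered libraries of 0.121, 0.069 and 0.058. With a replicate block, counting within pairs, the mean over pairs was 2605.5 gained and 1245.5 lost with TPA, and 2086.5 gained and 4434 lost with ZnCl2, and 2 pairs allow no p below 0.5. The cause of these changes was not tested, and without read counts the depth behind a call stays unknown.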
